A study of Saccharomyces cerevisiae with 5 samples.

Results

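The foreign genes described here stand back to back with a neighbour, so that the 2 genes of a pair are read away from a shared stretch of DNA. Genes of each insert were ordered by the number in their identifier. A gene read forward (F) was taken when the gene before it was read in reverse (R), and a gene on R when the gene after it was on F, with identifier numbers at most 44 apart. This gave 132 divergent genes, in 66 pairs, of 288 insert gene entries in all. The entries name 279 distinct genes, since YAC2 and YAC3 share 9. By strain the divergent genes were 40 of 58 in YAC1, 12 of 37 in YAC2, 14 of 39 in YAC3, 26 of 52 in YAC6 and 40 of 102 in YAC7. They were set against 130 tandem genes, whose upstream neighbour has the same direction. For 21 entries the upstream neighbour was too far away by identifier, and 5 had none.

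All 5 strains are *Saccharomyces cerevisiae* with foreign yeast DNA on artificial chromosomes, and no strain without one is among the samples. YAC1, YAC2 and YAC3 hold DNA of *Kluyveromyces lactis* (identifiers KLLA, chromosomes F, C and C), and YAC6 and YAC7 hold DNA of *Debaryomyces hansenii* (identifiers DEHA, chromosomes C and D). The medium lacked tryptophan and uracil supplements and held 2% dextrose, and mononucleosomal DNA was sequenced after digestion with micrococcal nuclease (MNase), an enzyme that cuts linker DNA between nucleosomes. Each strain is 1 library with its own insert, so the spread between strains holds both the strain and the DNA it carries. The smallest step of the host tables put the mean host signal at 396 steps per bin in YAC3 to 1739 in YAC1, and the depth in reads is unknown. The tables give foreign genes an identifier and a direction, without coordinates, names or functions.

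A divergent promoter serves a pair of genes that are transcribed outward from a common intergenic region. In yeast such a region usually holds nucleosome-depleted DNA, and the first nucleosome of each gene, called +1, flanks it on each side. A tandem promoter instead lies between the end of the upstream gene and the start of its own gene, so its far side borders the last part of another transcript.

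The deposited signal is scaled coverage around the listed start of a gene, given in 151 bins of 10 bp that span -500 to +1000 bp. The promoter ratio is the log2 ratio of the mean signal from -120 to -20 bp to that of the gene body, +100 to +500 bp, so a lower value is a deeper depletion. The upstream ratio does the same for -300 to -120 bp. The depleted width is the unbroken stretch around the lowest point whose smoothed signal stays under 50% of the gene body, followed from -500 to +300 bp. All 132 divergent genes and 129 of the 130 tandem genes passed the filter on mean signal.

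Divergent promoters of *K. lactis* were depleted in most genes, and those of *D. hansenii* in fewer. The promoter ratio was below -1 in 31 of 40 divergent genes of YAC1 (77.5%), where 78.9% of all its insert genes lay below that line. In YAC2 it was 9 of 12 (75%), against 64.9% of all insert genes there. In YAC3 it was 9 of 14 (64.3%), against 61.5%. Of the *D. hansenii* genes, 10 of 26 lay below the line in YAC6 (38.5%), against 40.4%, and 15 of 40 in YAC7 (37.5%), against 50%. The shares of YAC1, YAC3 and YAC6 were thus near those of all their insert genes. The tandem genes below the line numbered 14 of 16 in YAC1, 8 of 15 and 10 of 16 in YAC2 and YAC3, and 9 of 23 and 33 of 59 in YAC6 and YAC7.

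A ratio above 0, where the promoter holds more signal than the body, was found in 1 divergent gene of YAC1, in 3 of YAC6 (11.5%) and in 9 of YAC7 (22.5%), and in none of YAC2 and YAC3. Over all insert genes the shares were 1.75% in YAC1, 11.5% in YAC6 and 14.7% in YAC7, and 0% in the other two strains. The tandem genes above 0 were 3 in YAC6 and 6 in YAC7.

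**Figure D1:**
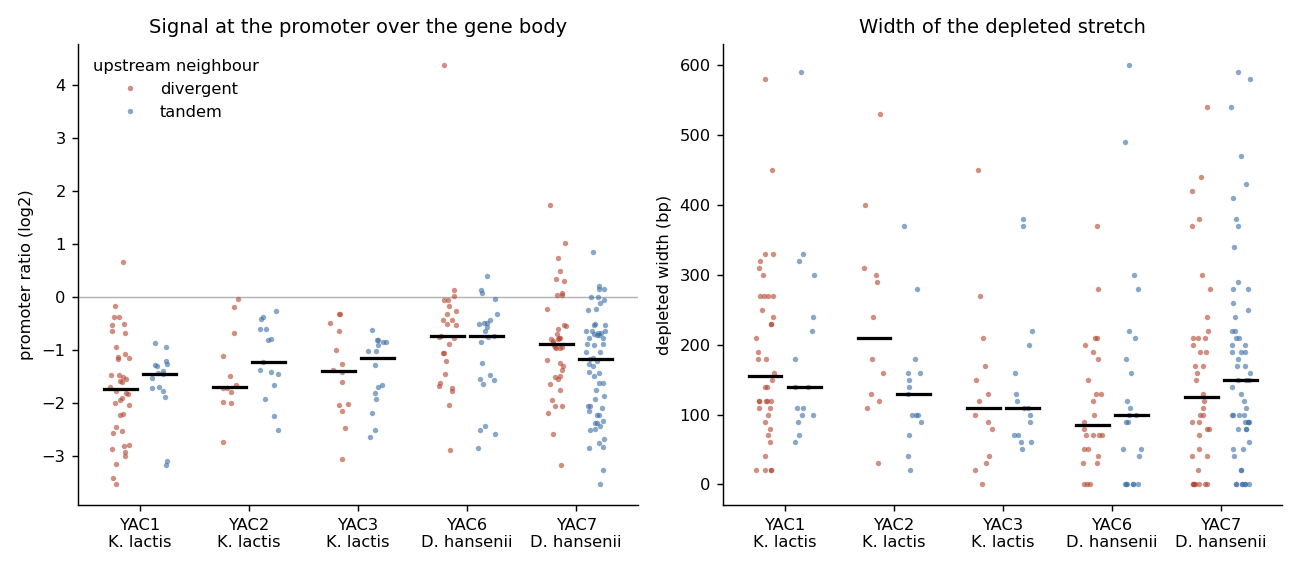
Promoter ratio (log2, left) and depleted width in bp (right) of every insert gene past the filter, by strain, with divergent genes in red and tandem genes in blue and a black bar at each median. The divergent medians of the promoter ratio are -1.73, -1.68 and -1.39 in the *K. lactis* strains and -0.73 and -0.88 in the *D. hansenii* strains, and the 2 classes overlap in every strain in both panels.

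The median promoter ratio of divergent genes was -1.73 in YAC1, with genes from -3.51 to 0.67. It was -1.68 in YAC2, from -2.73 to -0.04, and -1.39 in YAC3, from -3.04 to -0.32. In YAC6 it was -0.73, from -2.87 to 4.38, and in YAC7 -0.88, from -3.16 to 1.74. All 3 *K. lactis* medians thus lay below both *D. hansenii* medians, while single genes of the species overlapped widely. The medians averaged -1.60 ± 0.18 (SD, n = 3) for *K. lactis* and -0.81 ± 0.10 (SD, n = 2) for *D. hansenii*. The difference of -0.80 had p = 0.1 in a two-sided exact permutation test, the smallest that 3 strains against 2 allow, and an adjusted p of 0.5625 over 9 tests (exact permutation and sign-flip tests, Benjamini-Hochberg).

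Tandem promoters of the same inserts had median ratios of -1.44, -1.23 and -1.15 in YAC1, YAC2 and YAC3, and of -0.73 and -1.16 in YAC6 and YAC7. The divergent median minus the tandem median was -0.29 in YAC1, -0.46 in YAC2 and -0.24 in YAC3. By the median, divergent promoters were thus the deeper class in each *K. lactis* strain. The share of genes below -1 went the other way in YAC1, with 77.5% of divergent and 87.5% of tandem genes. In YAC2 and YAC3 that share was higher in divergent genes. The difference of medians was -0.003 in YAC6 and 0.28 in YAC7, where divergent promoters were the shallower class. Over the 5 strains the difference averaged -0.14 ± 0.29 (SD, n = 5), below 0 in 4 of 5 (exact two-sided sign-flip test p = 0.3125, adjusted p = 0.5625 over 9 tests). No p under 0.0625 can be had with 5 strains. The sign of this mean turned with means in place of medians (0.079), with identifier numbers at most 22 apart, which leaves 3 strains (0.015), and with the pairs whose profiles match alone, again 3 strains (0.068). Without YAC2 it was -0.06, and without both YAC2 and YAC3, whose pairs are set apart below, it was -0.003 (exact sign-flip p = 0.75).

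The within-strain difference was -0.33 ± 0.11 (SD, n = 3) for *K. lactis* and 0.14 ± 0.20 (SD, n = 2) for *D. hansenii*. This gap of -0.47 was tested after the strain values were seen and had p = 0.1 in a two-sided exact permutation test, the smallest that the design allows. It was -0.24 (exact permutation p = 0.3) with the whole profile in place of the gene body and -0.36 (exact permutation p = 0.3) without the genes that YAC2 and YAC3 share. With 3 strains left, it was -0.32 both for identifiers at most 22 apart and for matching pairs alone. Host genes sorted into the same classes in the same libraries had divergent minus tandem differences of 0.02, 0.08 and 0.16 in YAC1, YAC2 and YAC3 and of 0.001 and 0.10 in YAC6 and YAC7, all small and above 0. The insert difference minus the host difference averaged -0.21 ± 0.30 (SD, n = 5), below 0 in 4 of 5 strains (exact sign-flip test p = 0.1875, adjusted p = 0.5625). Its sign also turned with means (0.050) and with the matching pairs alone (0.029), and it was -0.04 without YAC2 and YAC3.

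At the lowest point between -300 and +50 bp, the median divergent gene of YAC1 kept 6.08% of its gene-body signal, against 18.9% in tandem genes. In YAC2 the values were 14.3% and 27.0%, and in YAC3 17.8% and 15.7%. In YAC6 they were 22% and 28.0%, and in YAC7 24.7% and 22.2%. YAC1 had the lowest divergent value and also the finest signal steps, and the part of depth in this was not tested.

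**Figure D2:**
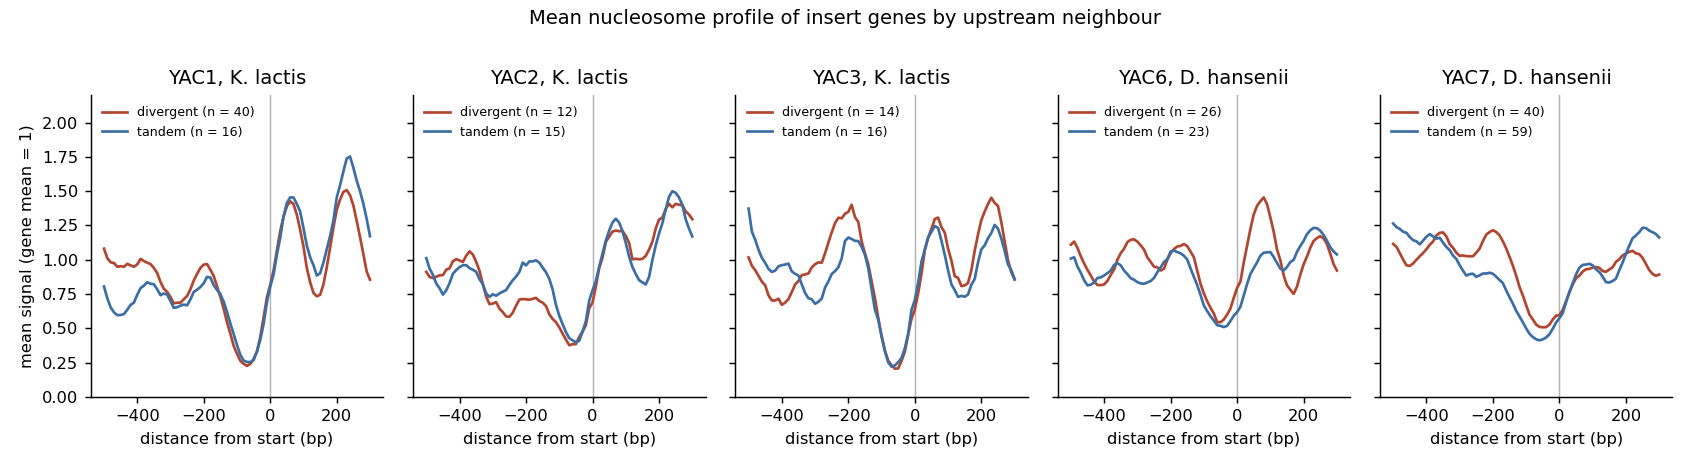
Mean smoothed signal of divergent (red) and tandem (blue) insert genes from -500 to +300 bp of the listed start in bp, 1 panel per strain, with each gene scaled to its own mean. The troughs of both classes reach about the same level in YAC1, YAC2 and YAC3, and near -200 bp the divergent curve lies above the tandem one in YAC3 and YAC7 and below it in YAC2.

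The mean profiles placed the trough of divergent genes 70 bp before the start in YAC1 and YAC2, 60 bp in YAC3 and 50 bp in YAC6 and YAC7. Its level was 0.23, 0.38 and 0.20 times the gene mean in YAC1, YAC2 and YAC3, and 0.54 and 0.51 times in YAC6 and YAC7. In tandem genes the trough levels were 0.25, 0.40, 0.22, 0.51 and 0.41 in the same order. The peak taken as the +1 nucleosome in divergent genes stood at +60 bp in YAC1, +70 bp in YAC2 and YAC3, +80 bp in YAC6 and +110 bp in YAC7. In YAC7 it reached only 0.95 times the gene mean, so its position is not well resolved. Of the 40 divergent genes of YAC7, 18 had their highest signal between 0 and +150 bp at an end of that range. In YAC6 the peak reached 1.45 times the gene mean in divergent genes and 1.06 times in tandem genes. This difference between classes was not tested. The mean of YAC6, at the trough as at the peak, includes DEHA2C13244g. The signal of this divergent gene, described below, lies almost wholly on one side of its start. Its promoter signal was 0.595 against a gene mean of 0.265, and the trough level without it was not computed.

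The upstream side separated the strains more than the promoter window did only with YAC2 counted. Without YAC2 the divergent medians ran from -0.49 to 0.20 upstream and from -1.73 to -0.73 at the promoter. The median upstream ratio of divergent genes was -0.49, -1.23 and 0.20 in the *K. lactis* strains YAC1, YAC2 and YAC3, and 0.03 and 0.07 in the *D. hansenii* strains YAC6 and YAC7. Tandem genes had -0.69, -0.48, -0.24, -0.06 and -0.42 in that order. The divergent median was therefore higher in every strain other than YAC2, by 0.20 in YAC1, 0.44 in YAC3, 0.09 in YAC6 and 0.48 in YAC7, while the difference in YAC2 was -0.75. The mean difference was 0.09 ± 0.50 (SD, n = 5; exact sign-flip test p = 0.75, adjusted p = 0.875 over 9 tests), and it was 0.30 without YAC2 and -0.0045 without YAC7. Host genes had a difference of 0.18 ± 0.04 (SD, n = 5), above 0 in each library. The insert difference minus the host one averaged -0.09 ± 0.47 (SD, n = 5; exact sign-flip test p = 0.8125, adjusted p = 0.875) and was 0.107 without YAC2. Between species the divergent upstream ratio was -0.51 ± 0.71 (SD, n = 3) for *K. lactis* and 0.05 ± 0.03 (SD, n = 2) for *D. hansenii* (exact permutation p = 0.4, adjusted p = 0.6).

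Depleted stretches of divergent genes were 155 bp wide in the median gene of YAC1, with a range of 20 to 580 bp. They were 210 bp in YAC2 (30 to 530 bp), 110 bp in YAC3 (0 to 450 bp), 85 bp in YAC6 (0 to 370 bp) and 125 bp in YAC7 (0 to 540 bp). The tandem medians were 140, 130, 110, 100 and 150 bp in that order. Divergent stretches were wider in the *K. lactis* strains YAC1 and YAC2, equal in YAC3 and narrower in both *D. hansenii* strains. The mean difference of 11 ± 41.4 bp (SD, n = 5) had an exact sign-flip p of 0.875 (adjusted p = 0.875 over 9 tests) and was -6.25 bp without YAC2. Host divergent stretches were narrower than host tandem ones by 20 ± 10 bp (SD, n = 5). Against that host difference the insert difference was 31 ± 37.0 bp higher (SD, n = 5; exact sign-flip p = 0.1875, adjusted p = 0.5625), above 0 in 4 of 5 strains.

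Between species the divergent width was 158 ± 50.1 bp (SD, n = 3) for *K. lactis* and 105 ± 28.3 bp (SD, n = 2) for *D. hansenii*, a difference of 53.3 bp (exact permutation p = 0.3, adjusted p = 0.5625). It was 15.8 bp with the whole profile in place of the gene body, 24.2 bp with each pair counted once and 27.5 bp without YAC2. No depleted stretch at all, a width of 0, was found in 3 of 26 divergent genes of YAC6 and 7 of 40 of YAC7. It was also found in 1 of 14 of YAC3, and in none of YAC1 and YAC2. Among tandem genes it was found in 6 of 23 of YAC6 and 7 of 59 of YAC7, and in none of the other strains. Stretches of 300 bp or more were found in 7 of 40 divergent genes of YAC1 and 4 of 12 of YAC2. The counts were 1 of 14 in YAC3, 1 of 26 in YAC6 and 6 of 40 in YAC7. Tandem counts were 4 of 16, 1 of 15, 2 of 16, 3 of 23 and 9 of 59 in the same order. The left edge of the divergent stretch lay at a median of -160 bp in YAC1, -290 bp in YAC2 and -120 bp in YAC3, YAC6 and YAC7. Its right edge lay between -20 and +10 bp in the median divergent gene of each strain. YAC2 thus had its extra width on the upstream side.

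Because partners are read in opposite directions, the reversed profile of one should overlie the profile of the other at a shift equal to the distance between their starts. Profiles were taken to match when they correlated at 0.9 or more over at least 30 bins and differed on average by at most 15% of their mean, a limit added after the data were seen. Of the 53 pairs of YAC1, YAC6 and YAC7, 42 matched, namely 16 of 20, 10 of 13 and 16 of 20. The lowest correlation among them was 0.978 and the largest mismatch 8.22%. Distances above 710 bp cannot be read this way. Of host divergent pairs, 85.5% to 85.7% matched per library, with a median distance of 160 bp and quartiles at 120 and 360 bp.

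None of the 6 pairs of YAC2 and none of the 7 pairs of YAC3 matched. On the correlation alone 3 would have been accepted, and their mismatches were 28.7% for KLLA0C04730g and KLLA0C04774g, 38.9% for KLLA0C04235g and KLLA0C04279g and 35.6% for KLLA0C06490g and KLLA0C06534g. The identifiers of these inserts also differed from the rest. No gene listed after a gene on R was less than 44 away by number, in 0 of 18 cases in YAC2 and 0 of 22 in YAC3, whereas after a gene on F the number was smaller in 15 of 18 and 14 of 16 cases. All 13 of their divergent pairs were exactly 44 apart, against 19 of 20, 12 of 13 and 19 of 21 steps from R to F under 44 in YAC1, YAC6 and YAC7. Whether a gene that is not listed lies within these pairs, or their starts are simply too far apart, cannot be told apart here. Values of YAC2 and YAC3 are therefore those of genes chosen by the rule, in pairs whose profiles did not match within the mismatch limit. Tandem genes on R in these 2 strains also had their upstream neighbour 44 away by number. Whether a gene is unlisted there was not tested, so the limit touches both classes of their divergent minus tandem values.

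Matched starts lay 100 to 660 bp apart in YAC1 (median 320 bp), 80 to 440 bp in YAC6 (median 110 bp) and 90 to 700 bp in YAC7 (median 140 bp). In YAC6, 9 of 10 matched pairs were at most 220 bp apart, and in YAC7 11 of 16, but in YAC1 7 of 16. No matched pair fell between 220 and 280 bp, so pairs are called close up to 220 bp and far from 280 bp on, a line drawn after the distances were seen. With the correlation alone as the criterion, the distances averaged 448 ± 145 bp (SD, n = 3) in *K. lactis* and 125 ± 21.2 bp (SD, n = 2) in *D. hansenii*, with an exact permutation p of 0.1, the smallest possible. That value rests on the 3 loose matches of YAC2 and YAC3. With the mismatch limit only YAC1 is left for *K. lactis*, and its median was 195 bp above the *D. hansenii* mean (exact permutation p = 0.333, 1 strain against 2).

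**Figure D3:**
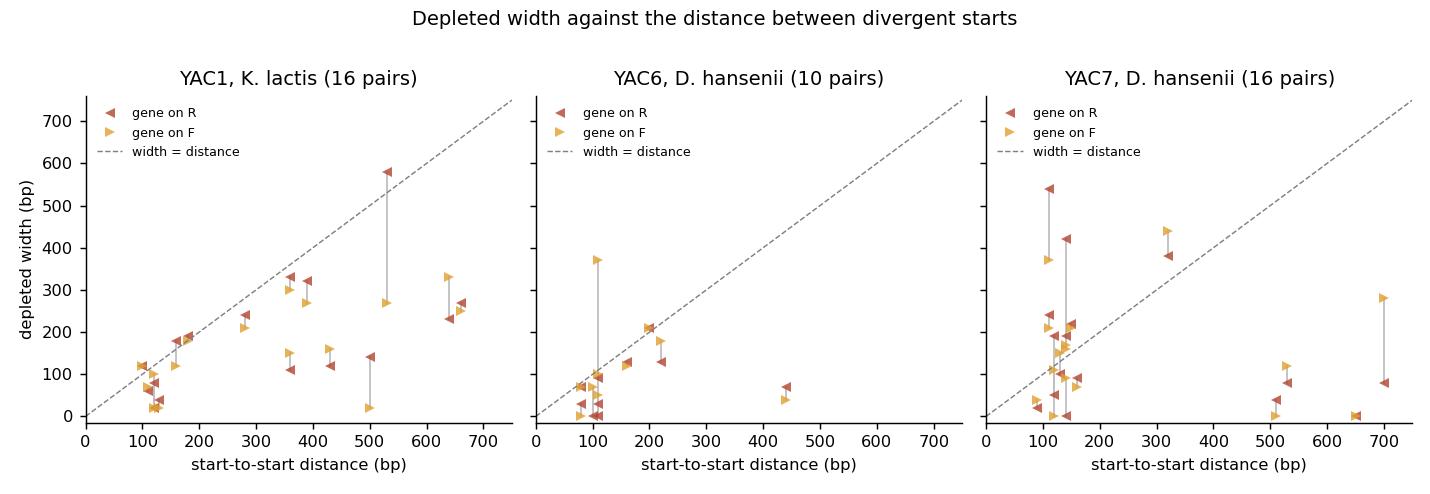
Depleted width in bp of both genes of each matched divergent pair against the distance in bp between their starts, with the gene on R as a left-pointing and the gene on F as a right-pointing triangle, joined by a line, and a dashed line where width equals distance. In YAC1 some pairs lie near the dashed line, such as the one 180 bp apart with widths of 190 and 180 bp. The pair 390 bp apart lies below it, with 320 and 270 bp, and some others lie farther below. In YAC6 most pairs sit near 110 bp, and in YAC7 pairs over 500 bp apart lie far below the line.

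In YAC1 the depleted stretch reached from near one start to near the other in part of the pairs. Both edges lay within 50 bp of the 2 starts in 13 of the 32 genes in matched pairs. In 5 pairs this held for both genes. Of the 14 genes in close pairs 10 counted, and of the 18 in far pairs 3 did. The tolerance of 50 bp lets a stretch well short of a narrow gap count. KLLA0F10703g, 110 bp from the start of its partner, counted with 60 bp. Stretches that ran more than 50 bp past a start did not count. The pair KLLA0F09691g and KLLA0F09713g, 100 bp apart, had stretches of 120 and 120 bp. At 180 bp apart, KLLA0F10351g and KLLA0F10373g had 190 and 180 bp. At 280 bp apart, KLLA0F10241g and KLLA0F10263g had 240 and 210 bp. These pairs were chosen after their values were seen, as examples in which the width rises with the gap.

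Wider gaps of YAC1, again picked by their values, were depleted in part. KLLA0F10439g and KLLA0F10461g, 360 bp apart, had stretches of 330 and 300 bp, and KLLA0F09625g and KLLA0F09647g, 390 bp apart, had 320 and 270 bp. Yet KLLA0F10593g and KLLA0F10615g, also 360 bp apart, had 110 and 150 bp, and KLLA0F10395g and KLLA0F10417g, 430 bp apart, had 120 and 160 bp. In all 9 far pairs of YAC1 the smoothed signal rose above 100% of the gene-body level somewhere from one start to the other, both starts included. This also held in 2 of the 7 close pairs, whose gaps are shorter. That high signal can lie next to a start. KLLA0F10241g and KLLA0F10263g, 280 bp apart, reached 172%, although their stretches ran from -250 to -20 bp and from -250 to -50 bp. Median widths in YAC1 were 90 bp in close and 245 bp in far pairs.

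Of the 20 genes in matched pairs of YAC6, 9 had both edges within 50 bp of the starts, with both partners in 4 pairs. Of the 32 in YAC7, 7 did, with both partners in 3 pairs. The matched pairs of YAC1 also hold 32 genes, of which 13 did. DEHA2C14542g and DEHA2C14564g of YAC6, 110 bp apart, both counted with only 30 and 50 bp. A wide gap cannot count through so short a stretch, so close and far pairs are not alike under this rule. No gene in a far pair of YAC6 or YAC7 met this rule. In YAC7 the median width was 155 bp in close pairs and 80 bp in far ones, the opposite order to YAC1. Of the 15 far pairs of the 3 strains, 14 had a signal above 100% of the gene body from one start to the other, both starts included. Of the 27 close pairs 9 did. The highest value is sought over a longer span in far pairs, so these counts are not alike. The exception among far pairs, named for that reason, was DEHA2D13794g and DEHA2D13816g, 320 bp apart. Its signal was 57.8% at its highest, with stretches of 380 and 440 bp. The stretch of DEHA2D13816g ran from -300 to +130 bp. It covered nearly the whole gap but went too far past its own start to be counted. The highest smoothed signal from 0 to +150 bp was taken as the +1 position, without a limit on its height. In the 20 close pairs where it lay off both ends of that range in both genes, these positions stood 190 to 420 bp apart (median 265 bp). Not all of them are clear nucleosome peaks. The position of DEHA2D16060g, at +110 bp, lay inside its depleted stretch of -100 to +260 bp.

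Partners of a close pair are not independent, since at 140 bp both promoter windows lie on nearly the same DNA. The pair DEHA2D15884g and DEHA2D15906g, at that distance, had promoter signals of 0.585 and 0.582, while its gene bodies were 2.47 and 1.07 and its ratios -1.75 and -0.77. Ratios of partners differed by a median of 0.40 in the 27 close pairs and 0.98 in the 15 far pairs. Of all 66 pairs, 25 had both ratios below -1, 24 had one and 17 had none. Counting each pair once as the mean of its genes kept the sign of the difference from tandem genes.

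**Figure D4:**
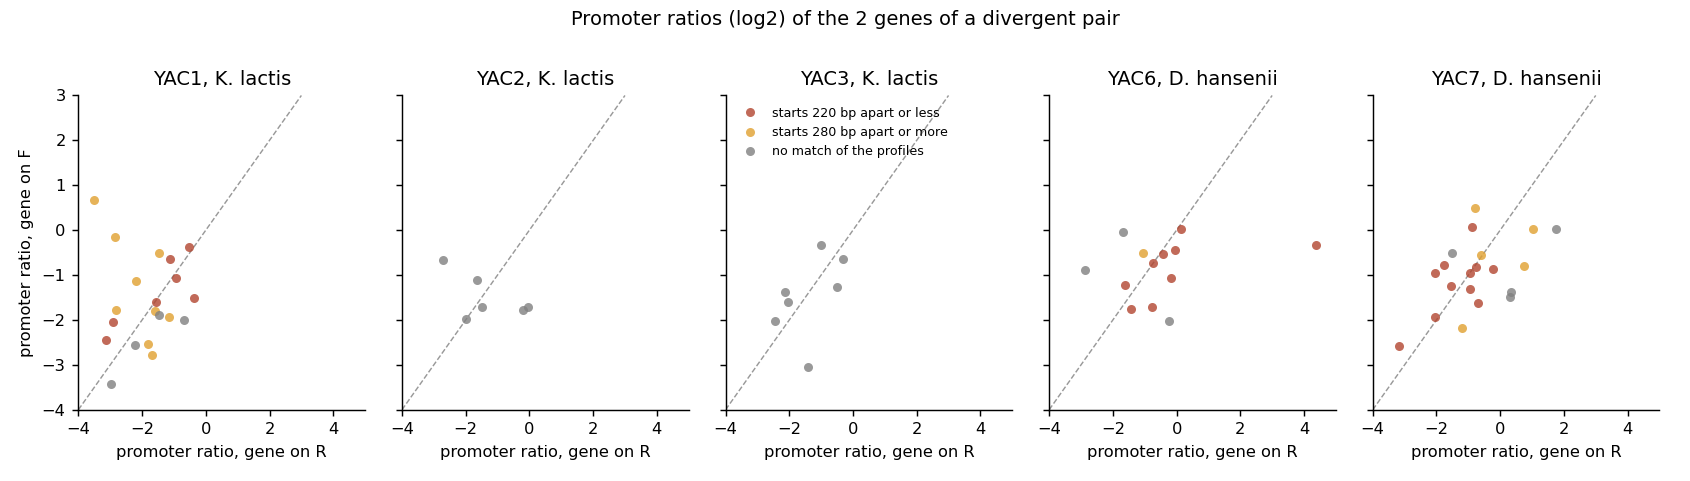
Promoter ratio (log2) of the gene on F against that of its partner on R for all 66 divergent pairs, 1 panel per strain, with pairs at most 220 bp apart in red, pairs at least 280 bp apart in yellow, pairs without a profile match in grey and a dashed line of equality. The median difference between partners is 0.40 in close and 0.98 in far pairs, while single pairs of the 2 kinds overlap. The YAC6 pair at 4.38 and -0.32 is a close pair that lies far from the line.

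Single pairs span the whole range, and were named by a rule: the deepest, shallowest, widest, narrowest and most unequal pair of each strain. The deepest of YAC1 was KLLA0F09845g with KLLA0F09889g. Their promoter signals were 0.103 and 0.0176, against gene bodies of 1.54 and 0.958, which gives ratios of -2.99 and -3.42. Both promoters were close to empty, and their profiles did not match, so the distance between the starts is unknown. The shallowest and narrowest pair of YAC1 was KLLA0F09735g with KLLA0F09757g, 130 bp apart, with promoter signals of 0.724 and 0.687 and bodies of 1.10 and 0.916. The ratios were -0.53 and -0.36 and the widths 40 and 20 bp. The mean signal from start to start was 92.5% of the body, but it was uneven, with smoothed values from 40.8% to 182% of the body.

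The widest and most unequal pair of YAC1 was KLLA0F10175g with KLLA0F10198g, 530 bp apart. KLLA0F10175g had a promoter signal of 0.0514 against a body of 1.48 (ratio -3.51) and a stretch of 580 bp, from -430 to +140 bp. KLLA0F10198g had a promoter signal of 1.30 against a body of 0.793 (ratio 0.67), and its own stretch of 270 bp began at the edge of the window, from -500 to -240 bp. Both profiles show the same empty DNA, which adjoins the start of KLLA0F10175g and lies away from that of KLLA0F10198g.

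In YAC2 the deepest pair was KLLA0C04147g with KLLA0C04191g, with promoter signals of 0.103 and 0.249, bodies of 0.632 and 1.31 and ratios of -1.99 and -1.97. The widest was KLLA0C04367g with KLLA0C04411g, at 290 and 530 bp. The shallowest, KLLA0C04730g with KLLA0C04774g, had ratios of -0.04 and -1.72, so only one of its promoters was filled. The narrowest and most unequal, KLLA0C04235g with KLLA0C04279g, had ratios of -2.73 and -0.67 and widths of 240 and 30 bp.

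KLLA0C04884g is the one divergent gene that 2 libraries measured. In YAC2, where it is a member, its promoter ratio was -1.10, its upstream ratio -1.31 and its width 400 bp. In YAC3, where it ends the insert and has no upstream neighbour, these were -0.61, -1.34 and 290 bp. Over the 9 genes that both strains carry, the SD of a single reading, taken from the differences between the libraries, was 0.35 for the promoter ratio and 87.7 bp for the width, so the readings of KLLA0C04884g differed by about the usual spread.

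In YAC3 the deepest and widest pair was KLLA0C05500g with KLLA0C05544g, with promoter signals of 0.371 and 0.241, bodies of 2.86 and 1.22, ratios of -2.46 and -2.02 and widths of 150 and 450 bp. The shallowest and narrowest was KLLA0C06490g with KLLA0C06534g, with ratios of -0.32 and -0.64 and widths of 0 and 30 bp. The most unequal was KLLA0C06292g with KLLA0C06336g, with ratios of -1.40 and -3.04, both below -1. Each *K. lactis* insert thus held nearly empty and nearly filled divergent promoters.

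In YAC6 the deepest pair was DEHA2C14080g with DEHA2C14102g, with promoter signals of 0.0506 and 0.806, bodies of 0.916 and 1.59 and ratios of -2.87 and -0.88. Only one of its genes was deeply depleted. The widest was DEHA2C14300g with DEHA2C14322g, 200 bp apart, with 210 bp in each gene and ratios of -1.44 and -1.76. The narrowest was DEHA2C13618g with DEHA2C13640g, 80 bp apart, with widths of 30 and 0 bp and ratios of -0.42 and -0.53.

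The shallowest and most unequal pair of YAC6 was DEHA2C13244g with DEHA2C13266g, 110 bp apart. DEHA2C13244g had a promoter signal of 0.595 and a gene body of 0.00339, which puts its ratio at 4.38, and 85 of its 151 bins were at 0. DEHA2C13266g had 0.632 and 0.803 (ratio -0.32), with 24 bins at 0 and a stretch of 370 bp that began at -500 bp. The high ratio comes from a gene body with almost no signal and not from a high promoter signal. Whether this DNA is the end of the insert or could not be mapped was not tested.

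YAC7 held the deepest *D. hansenii* pair, DEHA2D14212g with DEHA2D14234g, 140 bp apart. Its promoter signals of 0.0311 and 0.0448 against bodies of 0.939 and 0.681 gave ratios of -3.16 and -2.57, and the stretches of 190 and 160 bp ran from start to start. The widest was DEHA2D16038g with DEHA2D16060g, 110 bp apart, with 540 and 370 bp. Here the stretch of DEHA2D16038g ran from -460 to +70 bp, beyond the start of its partner.

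The shallowest pair of YAC7 was DEHA2D13684g with DEHA2D13706g, with promoter signals of 3.05 and 0.994, bodies of 0.783 and 0.968 and ratios of 1.74 and 0.04. DEHA2D13706g still had a depleted stretch of 200 bp, from -40 to +150 bp, with 2.76% of the body at its lowest. The narrowest was DEHA2D13728g with DEHA2D13750g, 650 bp apart, with ratios of 1.02 and 0.04 and no stretch in either gene. The most unequal was DEHA2D15202g with DEHA2D15224g, with ratios of 0.30 and -1.49. The same insert thus held a nearly empty pair and 2 pairs whose mean signal in both promoter windows was at or above the gene-body level.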

How the data were processed

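Mononucleosomal DNA of 5 strains was measured, 1 library per strain. Per the labels' protocols it was gel purified and amplified by PCR, and the submitters' processing notes name CASAVA 1.7.0. Not given in the sources used here are the aligner, the genome build, any read extension and what the listed starts are. Per the file headers, the deposited signal is coverage in 10 bp bins, oriented by gene, which the authors scaled to a mean near 1. Reads cannot be recovered from it, so no counting interval was computed.

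Ratios add 0.1 times the gene mean to both windows, which shrinks differences between very deep promoters. Genes under 10% of the host median signal were left out, which removed KLLA0F10857g. Widths were read after Gaussian smoothing with an SD of 20 bp. Host classes followed neighbours in a gene table of *S. cerevisiae* R64, which held 5259 of 5264 host genes. The suffix of 214 systematic names was put back first. Strain medians were compared by exact sign-flip and exact permutation tests, with Benjamini-Hochberg adjustment over 9 tests. Measures were tested on simulated data. Members, lists and measures were chosen with earlier results of these data known. Alternatives were other windows, pseudocounts, filters, summaries, width definitions and identifier limits, and each strain left out. Named pairs are the extremes of each strain in mean promoter ratio, mean width and difference between partners, with any divergent gene that YAC2 and YAC3 share. Foreign sequences and functions were not used here. Python 3.11.15, numpy 2.4.6, scipy 1.17.1 and matplotlib 3.10.9 were used.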

Additional observations from a re-analysis of the deposited data

Results flagged for a closer look

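The upstream ratio of YAC2 stood apart from the other strains. Its divergent minus tandem difference, less the host difference of the same library, was -0.88, farther from the next of the 5 strains than Dixon's test allows at the 95% level. The other strains gave -0.00019 in YAC1, 0.24 in YAC3, -0.07 in YAC6 and 0.25 in YAC7. Chance flags about 1 in 20 groups, and 6 results were scanned. YAC2 holds 12 divergent genes in 6 pairs, none with matching profiles.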

How the results depend on the processing

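None of the 9 tests of signal, nor the distance test, passed 0.05 in the main setting or under any alternative run, and the design allows no p under 0.0625 over 5 strains. The species differences in promoter ratio (-0.93 to -0.48), upstream ratio (-0.61 to -0.22) and width (15.8 to 85 bp) of divergent genes kept their signs under every alternative run, as did the distance difference (155 to 378 bp), the species gap in the divergent minus tandem promoter difference (-0.54 to -0.24) and the width difference against the host (3.33 to 39 bp). The other signs turned as follows. With means, promoter differences became 0.079 and, against the host, 0.050, and the upstream one against the host 0.0092. With identifiers at most 22 apart, the promoter difference became 0.015, the width difference -10 bp and the upstream one against the host 0.084. An upstream window from -400 bp gave 0.176 against the host. Settings added after seeing the data were matching pairs alone, YAC2 and YAC3 left out together, genes with many bins at 0 left out, the mismatch limit and smoothed overlaps. With YAC2 and YAC3 left out together, the promoter difference shrank to -0.003 and, against the host, -0.04, the width difference became -8.33 bp and the upstream one against the host 0.062. With matching pairs alone, the promoter differences became 0.068 and 0.029 against the host, the width difference -16.7 bp and the upstream one against the host 0.015. The cause was not tested.

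Leaving out 1 strain at a time gave -0.25 to -0.06 for the promoter difference, -0.0045 to 0.30 for the upstream and -6.25 to 20 bp for the width difference. Against the host these were -0.31 to -0.13, -0.18 to 0.107 and 16.3 to 40 bp, and between species they were -0.90 to -0.72, -0.91 to -0.19 and 27.5 to 77.5 bp. Of 171 values of single pairs, 47 moved by more than the spread between YAC2 and YAC3. No paired analysis was possible because strain numbers follow accession order and pair no samples. The planned setting without smoothing was not run for distances, which were already read from unsmoothed profiles and stayed at 323 bp with smoothed ones.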
